A study of Mus musculus with 8 samples.

Results

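The cells described here carried transcripts of the stem cell genes Hlf or Mecom but none of Procr, and came from a single-cell RNA-seq series of c-Kit+ Lin- (KL) bone marrow cells of B6 mice. They were chosen by raw counts of unique molecular identifiers (UMIs), each UMI standing for 1 captured transcript. The rule asked for Procr at 0, Hlf plus Mecom at 1 or more, Cd34 at 1 or more, Dntt at most 1, Pf4 at most 2 and Klf1 at 0, and found 3554 of 29891 cells, or 11.9%. The series compared 2 housing groups of female mice aged 3 to 4 months, for which the labels give no genetic change or drug. Specific pathogen free (SPF) mice stayed under SPF conditions, and conventional (CVT) mice were moved for 1 month into cages shared with conventional mice. Each group held 10 mice, whose sorted cells were combined into 4 pools of 2 or 3 mice, so that single animals could not be compared. Pools 1, 2, 7 and 8 were SPF and pools 3, 4, 5 and 6 were CVT. CVT stands for the whole change of housing.

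Haematopoietic stem cells rest at the top of blood formation and give rise to multipotent progenitors, which divide more often and lose self-renewal as they turn to a lineage. Hlf, a PAR bZIP transcription factor, and Mecom, which encodes EVI1, both maintain stem cells and are switched off early in differentiation. Procr encodes the endothelial protein C receptor (EPCR), a surface marker of highly potent stem cells. Cd34 is a sialomucin that in adult mice appears as long-term stem cells turn into short-term stem cells and progenitors. The limits on Dntt (the DNA polymerase TdT of early lymphoid cells), Pf4 (platelet factor 4) and Klf1 (an erythroid master regulator) set aside cells that had begun lymphoid, megakaryocyte or erythroid differentiation. No gene of granulocyte differentiation was part of the rule.

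Between 223 and 695 such cells came from each SPF pool and between 373 and 562 from each CVT pool. Their summed UMIs ranged from 1961657 to 6362531 per pool, and their median per cell was 7692.5 UMIs against 8964 over all cells. The smallest cell of the series held 2759 UMIs, and a share of cells given at fixed depth was computed after each cell had been thinned to that number. Scrublet called 105 of all cells doublets (0.351%) and 6 of the cells described, a share so low that the caller cannot be taken to have worked. Barcodes that occurred in more than 1 pool were found in 1048 cells, 127 of them within the rule. By their labels, mice 1 to 10 went into a first set of pools (1 to 4) and mice 11 to 20 into a second (5 to 8), with 2 pools of each group in each set.

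The fixed markers of the class stood above the average KL cell. In CPM pooled over cells, a level relative to all UMIs of a population, Adgrl4 (an adhesion receptor shared with endothelium) was at 151 against 48.6 over all cells. Myct1 (a gene shared by endothelium and stem cells) was at 86.8 against 33.1, and Angpt1 (the ligand of the TIE2 receptor) at 119 against 57.0. Procr positive cells, which had Procr at 1 or more, Hlf plus Mecom at 1 or more and the same upper limits on Dntt, Pf4 and Klf1 (650 cells), held these markers at 178, 149 and 177 CPM. The Cd34 Cd48 progenitors without stem genes, described below, held them at 121, 83.4 and 158 CPM. Lymphoid-primed progenitors, also described below, held them at 124, 29.4 and 57.4 CPM. The markers were thus not particular to the class, and Angpt1 was higher in the Cd34 Cd48 progenitors. All comparisons between sets of cells in this and the following 6 paragraphs are descriptions without a test. The sets were chosen on genes of the same cells.

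The label of multipotent progenitors fitted a part of the cells. Of the 3554, 2204 carried Hlf alone, 518 Mecom alone and 832 both. In 1783 cells (50.2%) membership rested on a single Hlf or Mecom UMI, while 812 had 2 and 959 had 3 or more, up to 13. Thinning every cell to the fixed depth before the rule found 1707 cells, 1379 of them also found on raw counts. Cells just inside and just outside the stem gene threshold differed in genes that the rule did not use. Their depth differed too, with a median of 8706 UMIs per cell at 1 stem UMI and 6920 at 2 or more. The cells without a stem UMI, given last, had a median of 13207.5. The part of depth in these differences was not tested. With 1 stem UMI, Elane (neutrophil elastase) was at 1766 CPM, Mpo (myeloperoxidase) at 2043 and Angpt1 at 90.4. With 2 or more they were at 367, 669 and 156 CPM, and in the 7292 cells that met every condition except for having no stem UMI they were at 3022, 3223 and 35.01 CPM. The other thresholds lay in thinner parts of the data, with 427 cells left out by 1 Procr UMI, 238 by 1 Klf1 UMI, 204 by a second Dntt UMI and 646 by the lack of Cd34.

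A subset of 371 cells (10.4%) held 10 or more Elane UMIs, and 321 of these had only 1 stem UMI. Their azurophil granule genes were close to those of neutrophil progenitors, the 4856 cells of the series with 10 or more Elane UMIs, which include them. Mpo was at 4639 against 4717 CPM and Ctsg (cathepsin G) at 3698 against 3799, while Myct1 was at 20.7 against 9.90. A Hlf UMI was found in 8.26% of neutrophil progenitors (median 16337.5 UMIs) and in 4.62% of erythroid cells (median 15659 UMIs), which should lack Hlf and had Klf1 and Car1 at 2 or more. At fixed depth these shares were 1.503% and 0.992%. The share was 44.3% in the cells described, but these were chosen on Hlf or Mecom. The neutrophil progenitors include the 371 cells chosen in this way, so their share is not free of the rule either. Because of this granulocyte content the cells are called Hlf or Mecom positive, Procr negative below, and not multipotent.

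A stricter subset with Elane and Ctsg at 0 or 1 and Mpo at 10 UMIs or fewer, the granule gene limits, held 1860 of the cells (52.3%). Stem and progenitor genes were higher in it than over all the cells. Ly6a (Sca-1, the surface marker of early KL cells) was at 91.8 against 46.7 CPM and Meis1 (a HOX cofactor) at 193 against 124. Flt3, the cytokine receptor of lymphoid-primed progenitors, was at 88.3 against 67.4 CPM, and Cd48, a surface protein that long-term stem cells lack, at 137 against 194. The share of cells inside the limits was 54.3% to 60.1% in SPF pools and 31.6% to 57.6% in CVT pools, with CVT pools 4 (31.6%) and 3 (40.1%) the lowest. The limits are on raw UMIs, so this share also depends on depth. The median was 6229 UMIs per cell inside the limits, 16892 in cells with 10 or more Elane UMIs and 7692.5 over all the cells. Pool 4 had the highest median of the 8 pools, 9656 UMIs, and pool 3 had 7547.5. The part of depth was not tested.

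**Figure D1:**
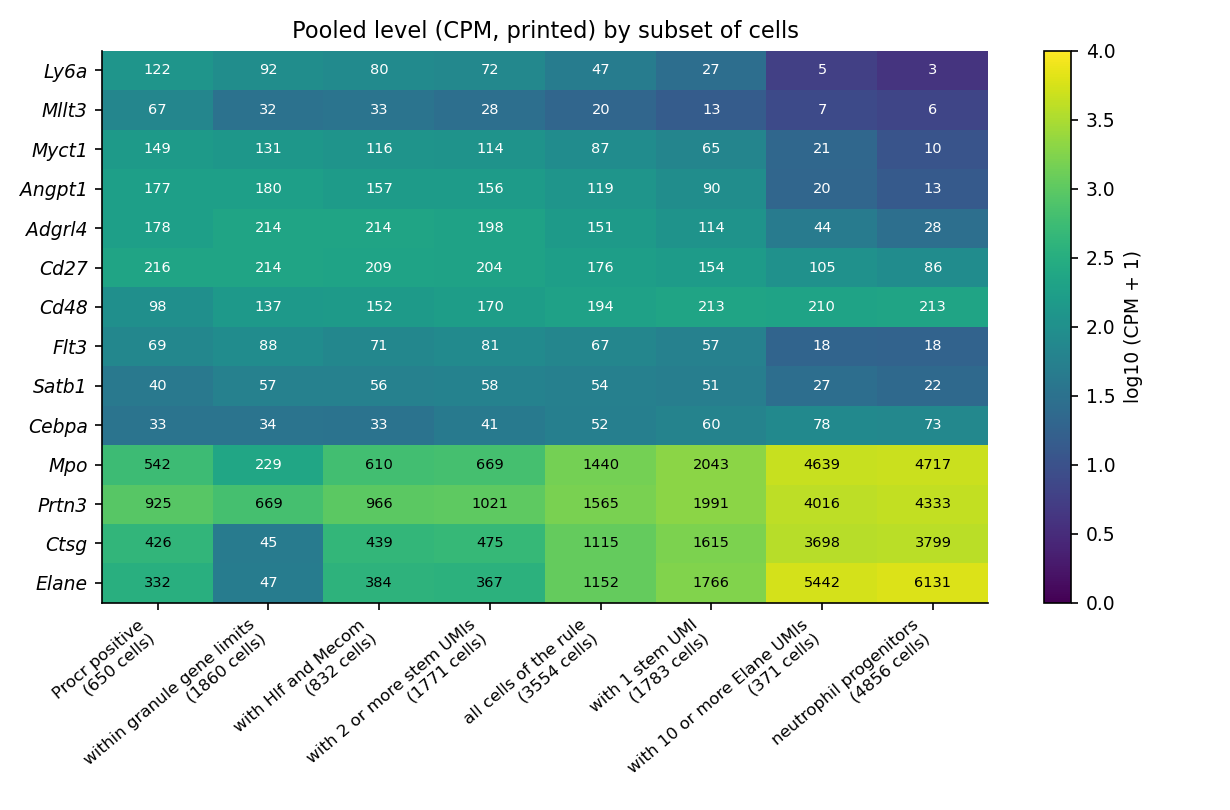
Pooled level in CPM (printed in each field, with the colour on a log10 scale of CPM + 1) of 14 genes in Procr positive cells, in the Hlf or Mecom positive, Procr negative cells and 5 subsets of them, and in neutrophil progenitors. Elane is at 332 CPM in the first and 6131 in the last column and lowest inside the granule gene limits (47.5), while Ly6a goes from 122 to 3.04 CPM.

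Cells with both stem genes held more of several stem cell genes than cells with 1 of them. Over the 8 pools, Ly6a was at 81.0 ± 18.6 CPM (SD, n = 8) in cells with Hlf and Mecom, 39.4 ± 9.32 with Hlf alone and 30.3 ± 12.5 with Mecom alone. Ly6a, Adgrl4, Myct1, Angpt1, Meis1, Msi2 (an RNA-binding protein of stem cells), Mycn (a MYC family factor) and Hoxa9 (a homeobox factor) were each higher in double positive cells than in Hlf-only cells in 8 of 8 pools. Granule genes ran the other way, and Mpo was at 599.9 ± 282 CPM in double positive cells, 1603 ± 441 with Hlf alone and 2039 ± 624 with Mecom alone. Mecom-only cells held more Elane than Hlf-only cells in 7 of 8 pools, with 1824 ± 654 against 1266 ± 460.5 CPM. Flt3 was at 71.5 ± 11.2 CPM in double positive, 67.1 ± 11.2 in Hlf-only and 63.6 ± 15.1 in Mecom-only cells, differences within the spread over pools. A cell with both genes has at least 2 stem UMIs, so that the kind and the number of stem UMIs cannot be told apart here.

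Set beside Procr positive cells, the cells held fewer transcripts of several stem cell genes and more of granulocyte precursors. Among 2816 genes of at least 50 CPM in either population, 466 (16.5%) were higher in 8 of 8 pools and 302 (10.7%) lower. Nothing is read from these counts, because the rule used this contrast. After Procr itself, the lowest ratio was that of Mllt3, a chromatin reader that maintains stem cells, at 19.8 ± 2.58 against 67.5 ± 10.1 CPM (n = 8). Nkx2-3, a homeobox gene, was at 18.9 ± 3.43 against 54.9 ± 6.16 CPM and Mycn at 19.6 ± 6.51 against 51.6 ± 12.3. Pdzk1ip1, Hacd4, Ltb, Ly6a and Gng11 were also lower, by 2.30-fold to 3.21-fold. The highest ratio was that of Ms4a3, a marker of granulocyte-monocyte progenitors, at 179.6 ± 64.7 against 44.5 ± 35.2 CPM. Elane, Ly6c2, Anxa3, Cst7, Cpa3, Ctsg, Mpo, Clec12a and Slpi followed, with ratios from 3.87 down to 2.41. Cdk6, a cell cycle kinase that is low in dormant stem cells, was at 305 against 219.6 CPM and higher in 8 of 8 pools.

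Cd34 Cd48 progenitors were set beside them as cells without stem genes (619 cells with Procr, Hlf and Mecom at 0, Cd34 and Cd48 at 1 or more, the same upper limits and the granule gene limits). Of 2775 genes, 197 (7.1%) were higher in the Hlf or Mecom positive cells in 8 of 8 pools and 178 (6.41%) lower. After Hlf and Mecom, the higher side was led by Ctsg, Elane and Mpo, granule genes that the Cd34 Cd48 rule limited. The lower side held Gzmb, a cytotoxic granule protease (2.95 ± 2.86 against 60.0 ± 34.2 CPM), Id2, an inhibitor of E proteins in innate lymphoid cells (5.69 ± 1.62 against 50.9 ± 42.6), and Gata2, a regulator of stem, mast and erythroid cells (57.8 ± 6.50 against 151 ± 40.4). Csrp3, Ifi27l2a, Apoe, Car1, Rnase6, Gnb4 and Lmo4 were also lower in 8 of 8 pools, by 2.27-fold to 8.27-fold.

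Early lymphoid genes were found in a part of the cells. At fixed depth, one of the fixed lymphoid progenitor markers was detected in 31.4% ± 1.68 of the cells (n = 8) and together with a granulocyte-monocyte marker in 29.7% ± 1.83. Single lymphoid genes were uneven, with Flt3 detected in 18.57% of the cells of all pools together, Satb1 in 13.96% and Il7r in 0.225%. In lymphoid-primed progenitors, which were chosen on Dntt and Flt3, Satb1 was detected in 37.51% and Il7r in 6.59%. The share with a lymphoid marker was 29.9% ± 4.52 in Cd34 Cd48 progenitors, 27.3% ± 5.21 in Procr positive cells, 13.4% ± 2.53 in neutrophil progenitors and 2.75% ± 0.859 in erythroid cells. A granulocyte-monocyte marker by itself says little, since 94.8% ± 2.28 of the cells had one and so did 55.2% ± 13.2 of erythroid cells. Slamf1 (CD150) was seen in 0.867% ± 0.389, below the 2.74% ± 0.696 of erythroid cells, and Ly6a in 13.5% ± 2.70 against 0.571% ± 0.426. By transcripts at this depth, 51.5% ± 1.97 of the cells had neither Cd48 nor Flt3, 30.0% ± 1.94 had Cd48 without Flt3 and 6.22% ± 1.42 had both. Flt3 was detected in 16.4% to 18.1% of the cells of CVT pools and 18.8% to 21.2% of SPF pools, and in 0.887% ± 0.493 of erythroid cells. The ranges of the groups did not overlap, and this difference in detection was not tested. The level of Flt3 over all UMIs did overlap, at 63.0 ± 7.37 CPM in CVT and 71.6 ± 6.09 in SPF pools (n = 4 each), and its log2 fold change of -0.18 had an adjusted p of 0.851 by edgeR's quasi-likelihood test.

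The first comparison asked whether housing changed how many of these cells the sorted marrow held. In SPF pools 1, 2, 7 and 8 they were 11.8%, 12.7%, 14.3% and 15.3% of all cells, and in CVT pools 3 to 6 7.72%, 8.93%, 12.5% and 13.4%. The groups overlapped, since CVT pools 5 and 6 lay within the SPF range and pools 3 and 4 below it. The mean was 10.6% ± 2.73 in CVT and 13.5% ± 1.57 in SPF pools (n = 4 each), and the difference of -2.91 percentage points was not significant. An exact permutation test over the 70 regroupings of pools gave a two-sided p of 0.143, or 0.257 adjusted over the 2 shares tested. Both sets of pools gave the same direction. The CVT mean was 8.33% against 12.3% in the first set and 12.9% against 14.8% in the second. Regrouping within the sets gave an exact permutation p of 0.0556, the smallest that 36 regroupings allow. A share of a sample also moves with the number of all other KL cells, and the 2 cannot be told apart. Among early cells alone (these cells, the Procr positive cells, the Cd34 Cd48 progenitors and the lymphoid-primed progenitors described below) the share was 49.9% ± 5.77 in CVT and 52.1% ± 2.76 in SPF pools, with overlapping pools, and the difference of -2.22 percentage points had an exact permutation p of 0.629.

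The second comparison asked whether the balance with Procr positive neighbours differed. The share was that of the cells of the rule among these and the Procr positive cells together. It was 86.4% ± 2.01 in CVT pools and 83.7% ± 3.26 in SPF pools (n = 4 each). The difference of 2.66 percentage points had an exact two-sided permutation p of 0.257. Cd34 was required of the Procr negative cells alone. The 646 cells that missed the rule by Cd34 alone were left out, while 135 Procr positive cells without Cd34 were counted. After all cells had been thinned to the fixed depth the difference was -0.333, of the opposite sign. Cells with Hlf alone were 62.7% ± 1.20 of the class in CVT and 60.9% ± 3.06 in SPF pools, and cells with both genes 21.8% ± 2.26 and 25.6% ± 2.15. Cells with a single stem UMI were 53.4% ± 5.81 in CVT and 46.3% ± 4.41 in SPF pools, and those with 10 or more Elane UMIs 12.8% ± 5.78 and 8.76% ± 0.472. The pools of the groups overlapped in each of these shares, which were not tested.

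**Figure D2:**
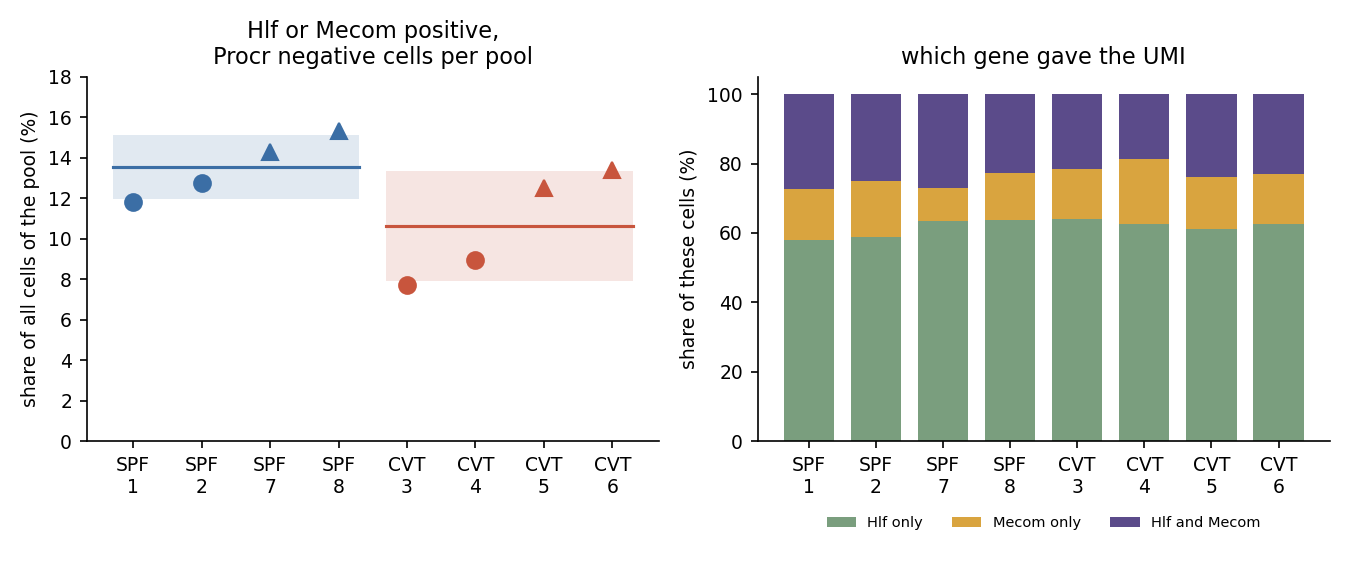
Left, share of all cells of a pool (%) that met the rule, with circles for pools 1 to 4, triangles for pools 5 to 8, a line at the group mean and a band of 1 SD. Right, share of these cells (%) with Hlf alone, Mecom alone or both, by pool. CVT pools 3 and 4 lie below all SPF pools on the left, and on the right pool 4 has the largest Mecom-only share, 18.5%.

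The third comparison asked which genes differed with housing inside the class. UMIs were summed per pool and tested with edgeR's quasi-likelihood test, and from here on levels are CPM scaled by the trimmed mean of M values (TMM). Of 10377 genes, 1 (0.00964%) rose in CVT at an adjusted p under 0.05 and 0 (0%) fell. DESeq2 also called 1 gene. At an unadjusted p under 0.05, 379 genes (3.65%) were higher in CVT and 265 (2.55%) lower. The pools of the groups did not overlap for 215 genes (2.07%) that were higher and 169 (1.63%) that were lower in CVT. In sums over cells, more of a cell type and more RNA per cell cannot be told apart.

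The gene that rose was Pglyrp1, which encodes peptidoglycan recognition protein 1, a bactericidal protein of neutrophil granules that binds bacterial cell walls. Its level was 53.8, 51.5, 63.2 and 61.6 CPM in SPF pools 1, 2, 7 and 8 and 98.3, 85.2, 80.1 and 108 CPM in CVT pools 3 to 6. Every CVT pool was above every SPF pool. The log2 fold change was 0.69 with a standard error of 0.105 (edgeR adjusted p = 0.0453), from 57.5 ± 5.77 to 92.8 ± 12.6 CPM. A Pglyrp1 UMI was found in 28.8% to 38.1% of the cells in CVT pools and 25.9% to 32.5% in SPF pools. The call did not hold among cells with fewer than 50 S100a8 UMIs (log2 fold change 0.46, edgeR adjusted p = 0.697), fewer than 10 Elane UMIs (0.62 and 0.418), inside the granule gene limits (0.35 and 0.986), or with 2 or more stem UMIs (0.56 and 0.898). After thinning before the rule it was 0.29 with an edgeR adjusted p of 0.769, and in the fit with the pool set as a block 0.69 with an adjusted p of 0.00470. It was also lost when any one of the 4 SPF pools, CVT pool 3 or CVT pool 6 was left out, with log2 fold changes from 0.60 to 0.75 over the 8 omissions.

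The next genes by p whose pools did not overlap were named by a fixed rule, and none of these 9 passed the adjusted threshold. On the higher side they were Cenpa, the centromeric histone CENP-A (96.3 ± 2.85 against 71.4 ± 7.72 CPM in SPF), Cks2, a subunit of cyclin-dependent kinases (364 ± 21.5 against 278 ± 32.1), Trem3, a myeloid receptor (28.7 ± 5.62 against 18.2 ± 1.04), and Cd177, a neutrophil surface protein (8.33 ± 2.32 against 2.58 ± 1.66). Each of them had an edgeR adjusted p of 0.426. Cd177 was held by 43 cells of CVT pools and 23 of SPF pools. On the lower side they were Car2, carbonic anhydrase 2 (433 ± 63.5 against 566 ± 39.8 CPM), Mn1, a transcription coregulator known from myeloid leukaemia (2.77 ± 0.615 against 6.02 ± 0.994), Shisa8 (20.1 ± 2.99 against 28.7 ± 1.95), Hmga2, a chromatin protein of fetal stem cells (11.2 ± 1.49 against 18.5 ± 4.39), and Cycs, cytochrome c (339 ± 4.54 against 397 ± 22.6). The edgeR adjusted p was 0.464 for Car2, Mn1 and Shisa8 and 0.642 for Hmga2 and Cycs.

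**Figure D3:**
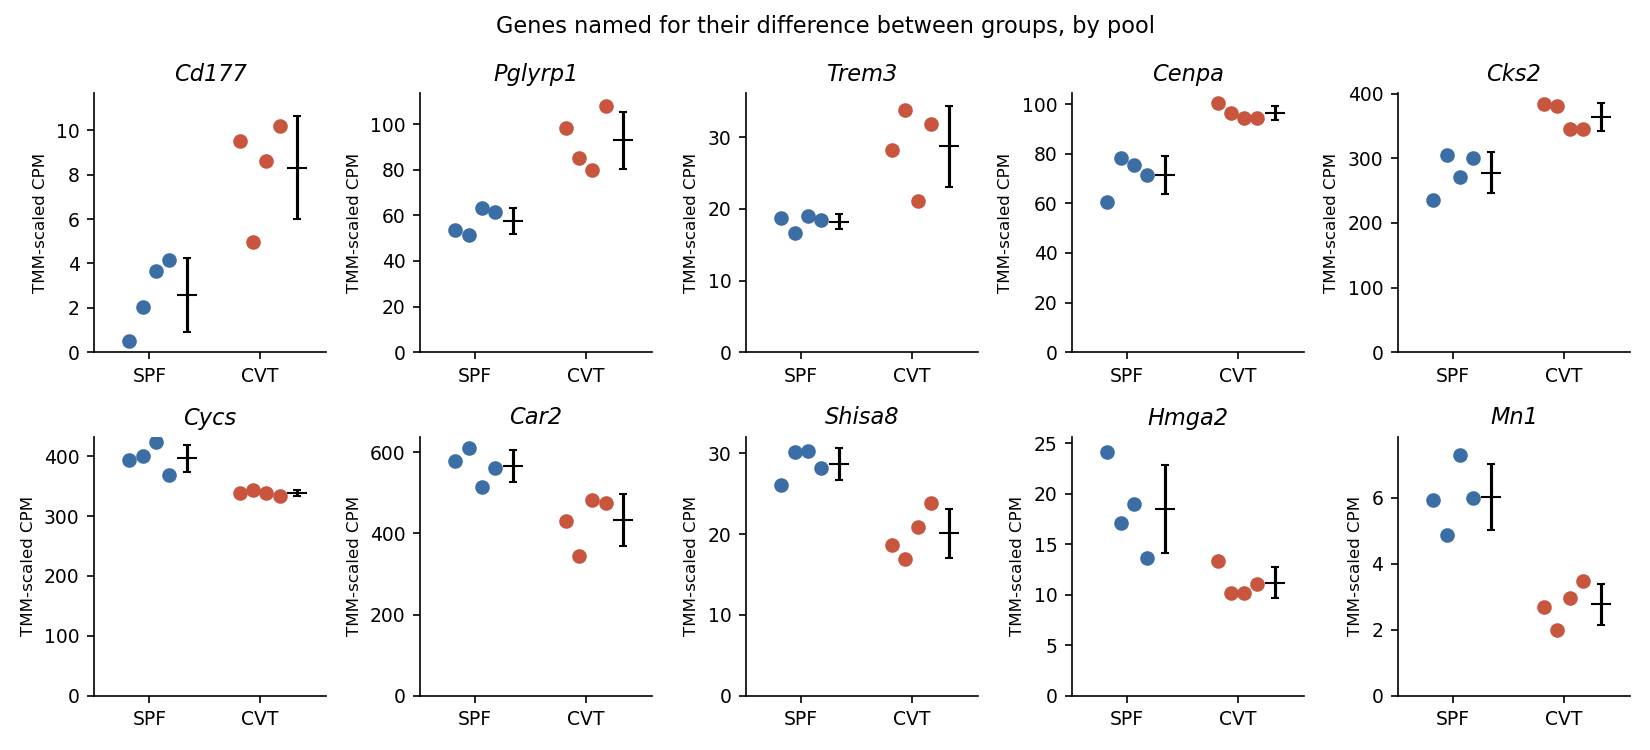
TMM-scaled CPM of the 10 genes named for their difference, with 1 point per pool and the group mean ± SD beside the points (n = 4 each). In each panel the groups do not overlap. Pglyrp1 alone passed the adjusted threshold.

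Genes of G2 and mitosis were higher in CVT throughout their list. All 27 genes were fitted and 27 had a positive log2 fold change, against 49.9% of all genes tested. The median was 0.30 and the range 0.09 to 0.62, beside a median of -0.00060 over all genes. Here and in the lists below, the genes of a list come from the same 8 pools and are not independent repeats. Counts of genes above or below 0 were therefore not tested. An unadjusted p under 0.05 was reached by 13 of 27, where 3.65% of all genes reached it on that side, and an adjusted one by 0, the smallest being 0.426 by edgeR. The summed level of the list was 1131, 1569, 1285 and 1504 CPM in SPF pools 1, 2, 7 and 8 and 1735, 1681, 1603 and 1771 CPM in CVT pools 3 to 6. Every CVT pool was above every SPF pool, and the means were 1697 ± 72.7 and 1373 ± 202 CPM. Ckap2l, a spindle protein, was at 18.96 ± 1.47 against 12.5 ± 2.82 CPM in SPF pools, Ube2c, a ubiquitin carrier of the anaphase-promoting complex, at 83.5 ± 16.2 against 58.5 ± 12.4, and Ccnb2, a mitotic cyclin, at 69.0 ± 12.01 against 52.9 ± 5.29. Of the most abundant genes of the list, Top2a (topoisomerase II alpha) was at 198 ± 25.7 against 184 ± 33.6 CPM and Birc5 (survivin) at 123 ± 14.7 against 101 ± 18.5.

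Genes of G1/S and replication did not show the same pattern. Of 24 fitted, 9 had a positive and 15 a negative fold change, with a median of -0.05, and 1 was lower at an unadjusted p under 0.05. Over all genes tested 49.9% were positive and 50.1% negative, and 2.55% had such a p on the lower side. Mcm6 and Mcm7, subunits of the replicative helicase, were at 197 ± 23.5 against 206 ± 18.3 and 169 ± 23.9 against 164 ± 9.78 CPM. In the list of cyclins D and Cdk inhibitors, Cdkn1b (p27) was at 28.2 ± 4.44 against 19.5 ± 3.25 CPM, higher in every CVT pool, and Ccnd2 (cyclin D2) at 218 ± 20.1 against 257 ± 17.5 CPM, lower in every CVT pool. Neither passed the adjusted threshold, with an edgeR adjusted p of 0.656 for both.

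The G2/M median was 0.57 when each cell was thinned before the rule, with 26 of 26 genes above 0. Without thinning it stayed between 0.27 and 0.37 when single pools were left out, and was 0.33 without cells of 10 or more Elane UMIs and 0.30 without cells of 50 or more S100a8 UMIs. Inside the granule gene limits it was 0.16, with 21 of 26 genes above 0 and 3 at an unadjusted p under 0.05. In the fit over all the cells 49.9% of all genes were above 0. There, 3.65% had such a p on the higher side and 2.55% on the lower. These shares are not given for the subset or the thinned cells, so nothing is read from their counts. Other populations of the same pools gave medians of 0.44 in Procr positive cells (16 of 18 genes above 0), 0.64 in Cd34 Cd48 progenitors (19 of 19), 0.20 in erythroid cells (25 of 27) and 0.03 in neutrophil progenitors (16 of 27). In lymphoid-primed progenitors, which had Procr at 0, Dntt at 2 or more and Flt3 at 1 or more, the median was 0.28 (26 of 27 above 0). Over all genes fitted, the share above 0 was 51.6% in Procr positive cells, 49.9% in Cd34 Cd48 progenitors, 50.6% in lymphoid-primed, 49.6% in erythroid and 49.3% in neutrophil progenitors. These populations share their pools with the cells described, so the values stand side by side and are not independent repeats. At fixed depth a G2/M gene was detected in 73.3% ± 5.47 of the cells in CVT and 71.4% ± 1.88 in SPF pools, with overlapping pools.

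The pools of the groups did not overlap for 7 of the 27 genes of this list, all higher in CVT, against 2.07% of all genes on that side. The promoters of 3 of them, Cenpa, Cks2 and Ckap2l, are printed. Genes of G2 and mitosis are known for CCAAT boxes, bound by NF-Y, and for the CHR element, bound by the MuvB complexes. Each stretch runs from 250 bases before to 50 after the start in RefSeq (GRCm38.p6), along the strand of the gene, with capitals at CCAAT or TTTGAA on either strand. They lie at chr5:30666636-30666935 (Cenpa, plus strand), chr13:51644982-51645281 (Cks2, plus strand) and chr2:129297163-129297462 (Ckap2l, minus strand).
Cenpa: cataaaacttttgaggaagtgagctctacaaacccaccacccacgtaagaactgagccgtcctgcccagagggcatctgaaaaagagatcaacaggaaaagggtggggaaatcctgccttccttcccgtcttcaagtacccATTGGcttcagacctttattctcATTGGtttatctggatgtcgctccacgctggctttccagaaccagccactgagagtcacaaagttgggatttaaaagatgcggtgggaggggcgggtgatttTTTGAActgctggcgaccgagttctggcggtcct
Cks2: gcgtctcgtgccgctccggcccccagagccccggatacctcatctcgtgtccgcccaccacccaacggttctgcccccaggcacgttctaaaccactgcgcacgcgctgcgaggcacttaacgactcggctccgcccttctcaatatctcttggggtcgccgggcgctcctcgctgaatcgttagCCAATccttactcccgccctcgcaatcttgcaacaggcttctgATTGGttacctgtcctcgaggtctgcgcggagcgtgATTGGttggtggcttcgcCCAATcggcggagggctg
Ckap2l: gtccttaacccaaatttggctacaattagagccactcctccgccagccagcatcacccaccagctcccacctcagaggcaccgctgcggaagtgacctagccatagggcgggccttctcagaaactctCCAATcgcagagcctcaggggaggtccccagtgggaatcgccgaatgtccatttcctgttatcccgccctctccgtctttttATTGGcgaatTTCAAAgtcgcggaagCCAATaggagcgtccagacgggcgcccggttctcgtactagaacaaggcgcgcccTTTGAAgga

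Cenpa held 2 CCAAT matches and 1 TTTGAA match, Cks2 held 4 and 0, and Ckap2l 3 and 2. Of the 27 genes of the list, 23 were found in the RefSeq promoter table, and 19 of these (82.6%) held CCAAT, 16 (69.6%) TTTGAA and 15 (65.2%) both. Among all 32851 promoter entries of the same length, which covered 27025 genes, the shares were 37.4%, 17.9% and 6.95%. Since genes of G2 and mitosis are known for these elements, the shares describe the list and not the cells or the housing. A match is a stretch of letters and not a bound site. The coordinates belong to the reference alone, since the submitters' notes name mm9 for the deposited counts.

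Granulocyte and monocyte priming genes were mostly higher in CVT. Of 19 genes, 17 had a positive fold change, with a median of 0.34, and 11 had an unadjusted p under 0.05 on the higher side and 0 on the lower, while none passed the adjusted threshold (smallest edgeR adjusted p 0.656). Over all genes of the fit 49.9% were positive and 3.65% had such a p on the higher side. Elane was at 1071, 766, 907 and 855 CPM in SPF pools 1, 2, 7 and 8 and at 1483, 2318, 722 and 1307 CPM in CVT pools 3 to 6. Pool 4 was the highest of all and pool 5 lay below every SPF pool. Neutrophil progenitors were 11.8%, 12.4%, 9.74% and 13.6% of all cells in SPF pools 1, 2, 7 and 8. In CVT pools 3 to 6 they were 21.2%, 24.9%, 13.1% and 16.8%. They include the cells of the rule with 10 or more Elane UMIs. At fixed depth an Elane UMI was found in 22.1% of erythroid cells. The part of RNA from other cells of the pool was not tested. Cebpe, a factor of granulocyte maturation, was at 27.8 ± 6.80 against 17.4 ± 5.28 CPM and Cebpa, which starts that lineage, at 59.5 ± 18.3 against 46.3 ± 6.02. Plac8, a gene of myeloid progenitors, was at 3352 ± 602 against 2807 ± 117 CPM, Mpo at 1664 ± 649 against 1275 ± 71.8 and Prtn3 (proteinase 3) at 1762 ± 397 against 1395 ± 27.3, each with overlapping pools. The summed list reached 16598 CPM in CVT pool 4 and lay between 8799.6 and 12740.1 in the other CVT pools, against 9301 to 10179 in SPF pools. Without cells of 10 or more Elane UMIs the median was 0.20, and inside the granule gene limits it was 0.18. Both choices act on granule genes of this lineage, so these medians are not free of the choice of cells. With single pools left out the median ranged from 0.13 (without CVT pool 4) to 0.44 (without CVT pool 5).

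Late granulocyte genes had the highest median of the 24 lists with at least 3 fitted genes, at 0.87, with 14 of 14 genes above 0 (49.9% of all genes were) and 10 at an unadjusted p under 0.05 on the higher side (3.65% of all genes were). Leaving out single pools moved the median from 0.65 (without SPF pool 2) to 1.12 (without CVT pool 4). S100a8, a calcium-binding alarmin of neutrophils, was at 1081, 852, 1426 and 1702 CPM in SPF pools 1, 2, 7 and 8 and at 2489, 797, 3072 and 3332 CPM in CVT pools 3 to 6. The groups overlapped, with CVT pool 4 below every SPF pool. Most of these UMIs sat in few cells, since 59 of the 3554 (1.66%) held 50 or more S100a8 UMIs, up to 2833, and together 79.5% of all of them, while the median cell had 3. The richest cell of a pool held 14.6% to 69.4% of its S100a8 UMIs. Without these 59 cells the median of the list was 0.15, with 7 of 11 fitted genes above 0 and 0 at an unadjusted p under 0.05. The cells were left out on S100a8, itself a late granulocyte gene, so this median is not free of the choice of cells. Over all cells of the pools the median of the list was -0.53, with 0 of 14 genes above 0, where 46.5% of all genes were.

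Among markers of unrelated cell types, those of stroma, endothelium and B cells were low. Of 14 genes of stroma and endothelium 1 could be fitted, their sum was 5.31 to 12.7 CPM per pool in CVT and 6.31 to 9.13 in SPF, and Kdr, the VEGF receptor of endothelium, was at 1.04 ± 0.732 against 1.35 ± 0.463 CPM. B cell genes summed to 41.6 to 60.2 CPM in CVT and 40.9 to 54.0 in SPF pools, with 2 of 11 genes fitted. T and NK cell genes summed to 372 to 446 and 304 to 378 CPM, most of it Nkg7, a granule membrane protein (374 ± 25.1 against 332 ± 33.1 CPM). Hbb-bs, an adult beta globin, followed the numbers of the mice and not the housing, with a range of 4.88 to 9.71 CPM over the first set of pools and of 121 to 441 CPM over the second. Basophil and mast cell genes summed to 1159 to 1327 CPM in CVT and 1057 to 1281 in SPF pools. Mcpt8 and Cpa3, given below, were a small part of that sum. The list had a median of 0.63, with 6 of 7 above 0 and 3 at an unadjusted p under 0.05, where 49.9% and 3.65% of all genes were. That median ranged from 0.22 (without CVT pool 4) to 0.81 (without CVT pool 6) with single pools left out. Mcpt8, a basophil protease, was at 33.0, 99.6, 25.2 and 81.4 CPM in CVT pools 3 to 6 and 21.2, 22.4, 21.6 and 36.0 in SPF pools 1, 2, 7 and 8. A single cell held 56.4% of the Mcpt8 UMIs of CVT pool 6 and another 29.8% of those of pool 4. Cpa3, a mast cell carboxypeptidase of the same list, had the opposite sign, at 84.0, 62.2, 76.7 and 75.9 CPM in CVT and 84.8, 76.1, 60.7 and 134 in SPF pools (log2 fold change -0.28, edgeR adjusted p = 0.881). Inside the granule gene limits 3 genes of that list could be fitted, with a median of 0.05. The part of these markers in the differences between groups was not tested.

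Stem cell genes showed small differences between groups. Of 20 stem cell regulators, Hlf and Mecom of the rule included, 8 had a positive and 12 a negative fold change, with a median of -0.04, where 50.1% of all genes were negative. Tcf15, a regulator of stem cell quiescence, was the 1 gene with an unadjusted p under 0.05, at 2.47 ± 1.15 against 4.22 ± 0.516 CPM. Of 13 fitted long-term stem cell markers, 10 were below 0, with a median of -0.21. With single pools left out this median ranged from -0.32 (without CVT pool 5) to -0.08 (without SPF pool 8), and the number lower at an unadjusted p under 0.05 was 2 over all pools and 2 to 8 in the 8 omissions, the most without CVT pool 5. Ly6a was at 40.4, 24.4, 48.8 and 48.4 CPM in CVT pools 3 to 6 and 51.3, 46.2, 58.8 and 54.9 in SPF pools 1, 2, 7 and 8, with pool 4 the lowest. Tgm2, a transglutaminase, was at 2.60 ± 1.16 against 5.57 ± 1.48 CPM with no overlap. Both had an unadjusted p under 0.05, as 2.55% of all genes had on the lower side, and an edgeR adjusted p of 0.718 and 0.642. The genes of the rule are given without a test, with Hlf at 163 ± 33.8 against 183 ± 23.3 CPM, Mecom at 50.2 ± 7.50 against 53.4 ± 6.65 and Cd34 at 371 ± 17.9 against 392 ± 21.0. Of the other markers of the class, Adgrl4 was at 144 ± 18.97 against 162 ± 19.8 CPM, Angpt1 at 110.1 ± 20.01 against 126 ± 6.78 and Myct1 at 85.3 ± 8.65 against 86.4 ± 4.07, and none passed the test. Genes shared with endothelium had a median of -0.09, with Mmrn1, multimerin 1, at 6.38 ± 1.76 against 10.5 ± 1.67 CPM.

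AP-1 and immediate early genes were above 0 in 17 of 17 cases (49.9% of all genes were), with a median of 0.43, but spread widely between pools. Their summed level was 763, 1162, 846 and 1338 CPM in SPF pools 1, 2, 7 and 8 and 1691, 2238, 1216 and 675 CPM in CVT pools 3 to 6. CVT pool 6 was below every SPF pool and pool 4 the highest of all. Klf6, Jund and Zfp36 had an unadjusted p under 0.05 (3.65% of all genes had one on the higher side), and Fos, a subunit of AP-1, was at 201 ± 121 against 135 ± 54.8 CPM. The median ranged from 0.14 (without CVT pool 4) to 0.69 (without CVT pool 6) when single pools were left out. Hspa1a, an inducible heat shock protein, was at 28.2, 106, 12.5 and 0.816 CPM in CVT pools 3 to 6 and 0.986, 7.32, 4.38 and 5.37 in SPF pools 1, 2, 7 and 8. The list of heat shock genes as a whole had a median of -0.05. These genes also respond to the handling of cells, whose part was not tested.

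Interferon-stimulated genes were below 0 in 17 of 22 cases (50.1% of all genes were), with a median of -0.13, and 3 had an unadjusted p under 0.05, as 2.55% of all genes had on that side. The median ranged from -0.18 (without SPF pool 8) to -0.04 (without SPF pool 2) when single pools were left out. The 3 genes were Isg15, a ubiquitin-like modifier (26.7 ± 1.52 against 34.6 ± 5.98 CPM), Isg20, an exonuclease (13.9 ± 2.21 against 17.97 ± 1.75), and Ifi47, an immunity-related GTPase (68.5 ± 6.75 against 78.9 ± 7.49). The groups did not overlap for Isg15 and Isg20, and the smallest edgeR adjusted p of the list was 0.656. MHC class I genes had a median of -0.04 over 12 genes, with B2m (beta-2 microglobulin) at 2608 ± 256 against 2692 ± 138 CPM. Toll-like receptor signalling genes had a median of 0.08 (11 fitted of 19, 0 at an unadjusted p under 0.05), and Nfkb1, a subunit of NF-kB, was at 69.7 ± 6.27 against 68.3 ± 5.16 CPM. Lymphoid priming genes had a median of -0.16 with 7 of 9 below 0, among them Bcl11a, a factor of lymphoid progenitors and stem cells (102 ± 14.6 against 117 ± 7.67 CPM), and 0 at an unadjusted p under 0.05. That median ranged from -0.22 (without CVT pool 6) to -0.04 (without CVT pool 4), and the number lower at an unadjusted p from 0 to 3, with single pools left out. Erythroid priming genes had a median of 0.18, with 9 of 12 above 0 and Car2 below. The medians of the remaining lists lay within 0.1 of 0, namely 0.06 for cytokine receptors, 0.03 for the Bcl2 family, -0.06 for DNA damage repair, -0.02 for MHC class II, 0.04 for multipotent progenitor markers, 0.07 for megakaryocyte priming and 0.06 for cyclins D and Cdk inhibitors. Haemoglobin genes (median 0.53) and T and NK cell genes (0.17) had 4 and 3 fitted genes, and with single pools left out the haemoglobin median ranged from -0.88 (without CVT pool 5) to 1.83 (without SPF pool 8).

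**Figure D4:**
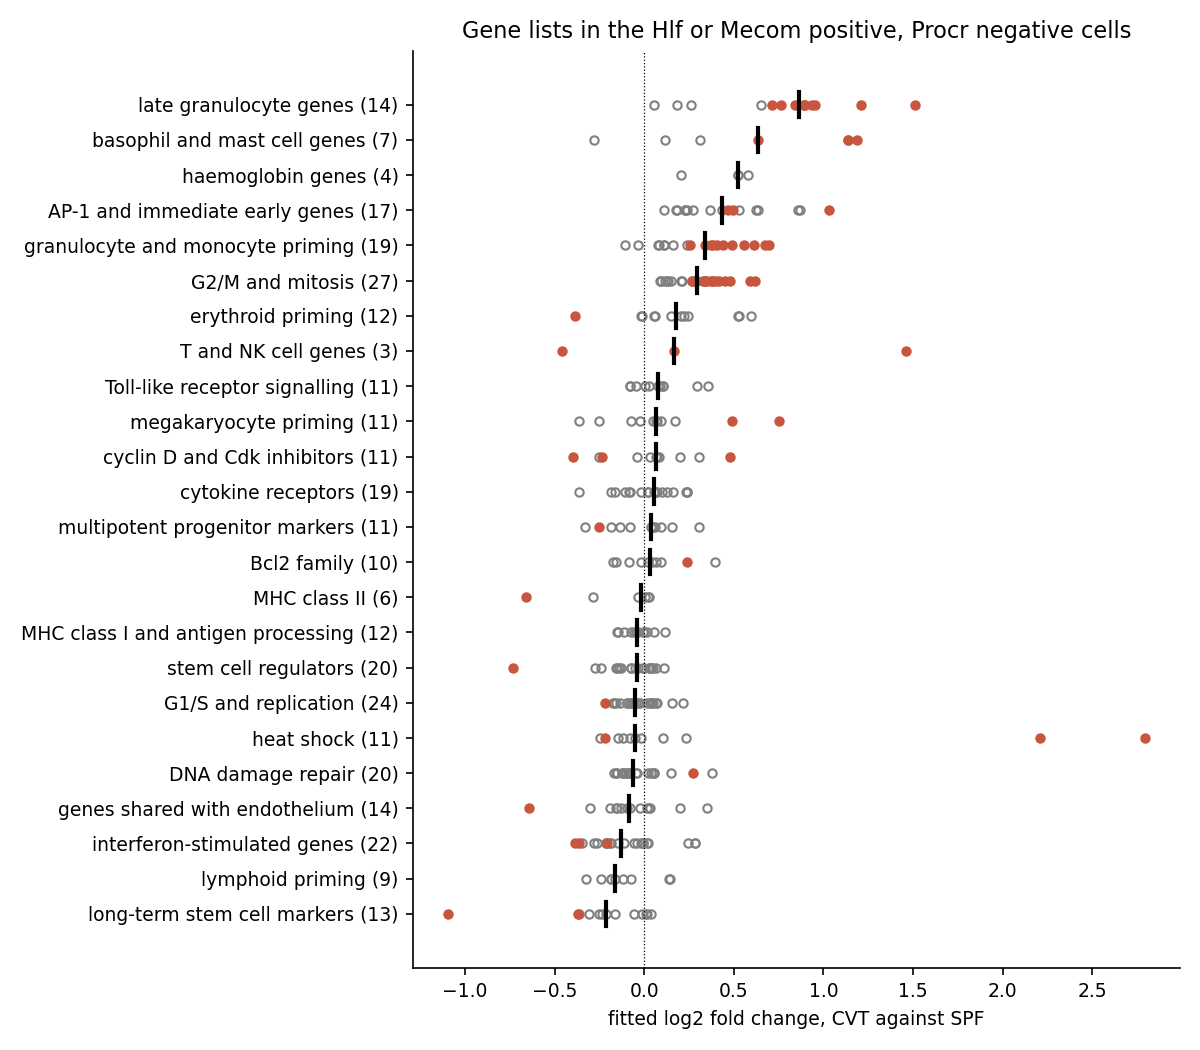
Fitted log2 fold change (CVT against SPF) of the genes of each list, with the number of fitted genes in brackets. Filled red points have an unadjusted p under 0.05, open points do not, and the bar is the median. Late granulocyte genes (0.87) stand highest and long-term stem cell markers (-0.21) lowest.

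**Figure D5:**
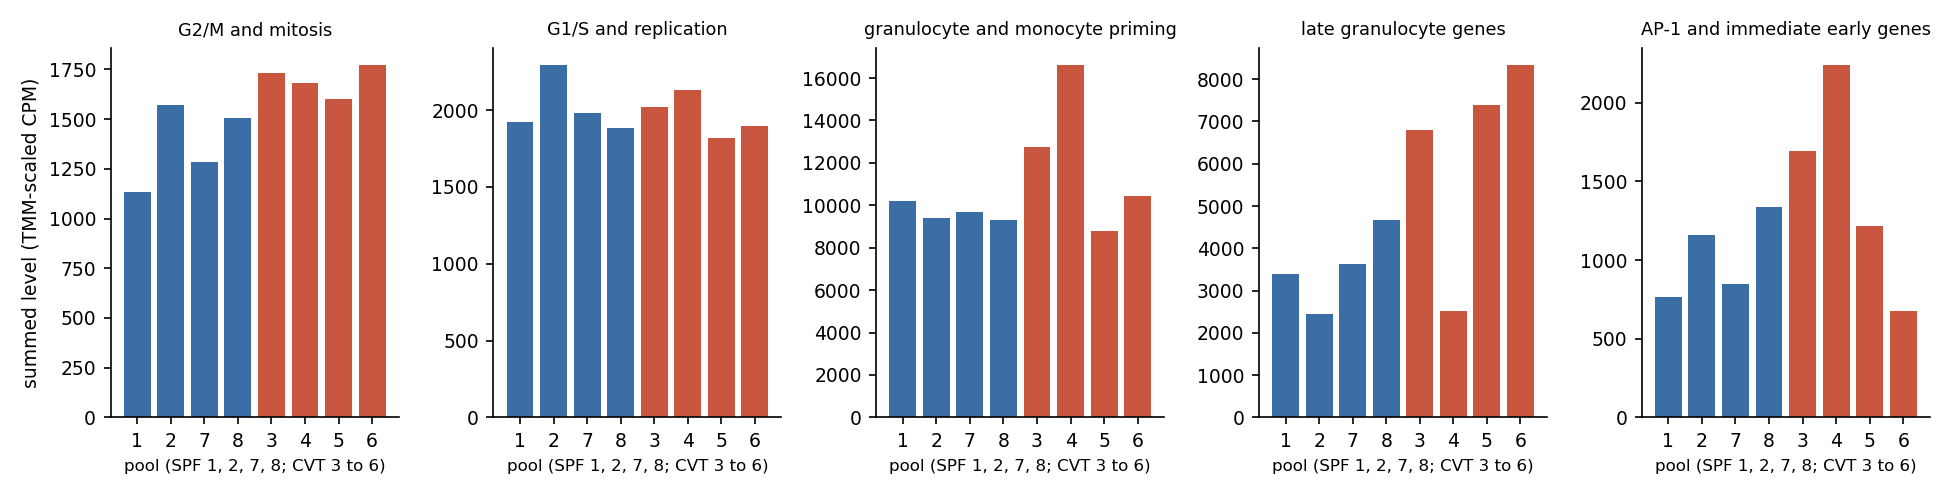
Summed TMM-scaled CPM of 5 lists in each pool, with SPF in blue and CVT in red. The CVT bars are all above the SPF bars for G2/M and mitosis only, from 1603 upward against at most 1569 CPM, while CVT pool 4 is highest for granulocyte and monocyte priming and for AP-1 genes and low for late granulocyte genes.

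The last comparison asked whether the change with housing differed from that in Procr positive cells of the same pools. In 1 fit over both populations with the pool as a block, 1 of 9363 genes (0.0107%) had a more positive change in the Procr negative cells at an adjusted p under 0.05 and 0 (0%) a more negative one. At an unadjusted p under 0.05 there were 177 (1.89%) and 200 (2.14%), and DESeq2 called 0 genes with 114 at an unadjusted p under 0.05. The gene was Ccl5, a chemokine of T cells, NK cells and activated myeloid cells, with a log2 difference between the changes of 3.73 and a standard error of 0.581 (edgeR adjusted p = 0.000664). In the Procr negative cells it was at 9.80, 4.23, 11.6 and 25.5 CPM in CVT pools 3 to 6 and 3.45, 5.29, 4.38 and 5.06 CPM in SPF pools 1, 2, 7 and 8. In Procr positive cells it was at 4.65, 0, 2.98 and 5.11 CPM and 3.35, 28.5, 0 and 17.8 CPM in the same order. The groups overlapped in both populations. The log2 fold change within the Procr negative cells alone was 1.46, with an edgeR adjusted p of 0.642. The value rested on 50 Procr negative cells of CVT and 41 of SPF pools with 304 UMIs in all, on 49 UMIs in Procr positive cells, and 1 cell held 78.8% of the UMIs of CVT pool 3. It did not pass without SPF pool 2 (edgeR adjusted p = 0.101) or SPF pool 8 (0.0820). For Pglyrp1 the log2 difference between the changes was 0.34 with a standard error of 0.209 and did not pass.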

How the data were processed

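Bone marrow cells sorted as lineage negative and CD117 positive were run on 10x Chromium 3' v2 chips, and the submitters' notes name Cell Ranger (version not given in the sources used here) and the genome build mm9. The deposited values were raw UMI counts in 1 matrix of 27998 genes by 29891 cells, made by the authors from all 8 pools. Cells were given to pools by the number at the end of the cell name, read as the pool number in the sample descriptions. That reading of the names is an assumption. The pools held 19041749 to 59812346 UMIs each.

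Members and gene lists were chosen with earlier results of these data known. UMIs were summed per pool and class and tested with edgeR 4.0.16 (quasi-likelihood, TMM, filterByExpr, Benjamini-Hochberg adjusted p under 0.05) in R 4.3.3, with DESeq2 1.42.0 as an alternative. The difference of changes was fitted with the pool as a block. Shares were compared by exact permutation over pools (written in Python 3.11.15), whose smallest two-sided p was 0.0286. Other alternatives were RLE scaling, no low-count filter, thinning of each cell, a stricter stem gene limit, a cell filter (no cell under 1000 genes or over 10% mitochondrial UMIs), removal of Scrublet calls (scanpy 1.11.5, expected rate 0.06), looser rules on Procr and Cd34, a block for the pool set, and each pool left out. The limits on granule genes, Elane and S100a8 and the share of the 4 early populations were added after the data were seen. Scrublet calls were kept in the main values. The pools are of different mice, and p-values measure the spread between pools.

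Genes named by rule were those of the class, those past the threshold or, up to 5 per direction, those of smallest p without overlap, the 3 most abundant of each list, the 10 highest and 10 lowest ratios against other cells, and S100a8, Hbb-bs and Ccl5. One gene that the rule names is not reported here. Other list genes were chosen after their values were seen. The tests were tried on simulated data first.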

Additional observations from a re-analysis of the deposited data

Results flagged for a closer look

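The share of Mecom-only cells was 18.5% in CVT pool 4, against 14.2% to 14.8% in the other CVT pools. Its gap to the nearest pool was 0.864 of the range of the group, above Dixon's 95% critical value for 4 samples. It was the only one of 82 groups of 4 pools beyond that value. Since chance gives about 1 in 20, 1 of 82 is no more than chance alone would give. Pool 4 was also the pool with the fewest cells inside the granule gene limits (31.6%), and the link was not tested.

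The change of Ccl5 with housing differed between Procr negative and Procr positive cells by 3.73 on the log2 scale, by the test of that difference given above, from 304 and 49 UMIs. Of the other T and NK cell genes fitted, Nkg7 was at 374 ± 25.1 against 332 ± 33.1 CPM and Lck at 7.76 ± 1.49 against 11.2 ± 2.23 CPM (CVT against SPF, n = 4 each).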

How the results depend on the processing

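No paired analysis was possible because replicate numbers only name the pools, and the pool set served as a block instead. The share of these cells kept its direction, with p above 0.05, in all 19 alternatives, with -3.83 to -1.94 percentage points when single pools were left out. The difference in their share among these and the Procr positive cells together reversed to -0.333 (exact permutation p = 0.886) after thinning. It ranged from 1.07 to 3.50 with pools left out.

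The count of genes past the threshold was 65 without the low-count filter (59 higher and 6 lower), 3 after thinning and 2 with the pool set as a block. By edgeR it was 0 with 2 or more stem UMIs (481 genes at an unadjusted p under 0.05), 0 inside the granule gene limits (407), 0 under 10 Elane UMIs (632) and 0 under 50 S100a8 UMIs (634), and from 0 to 10 with single pools left out. It was 0 without SPF pool 1, 2, 7 or 8 or CVT pool 3 (531 to 620 genes at an unadjusted p under 0.05), 10 without CVT pool 4 and 8 without CVT pool 5. The 1 gene called without CVT pool 6 was not Pglyrp1.

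The count of genes whose change differed between populations was 13 without the low-count filter (10 more positive, 3 more negative), 0 by DESeq2 (114 at an unadjusted p under 0.05), 4 after thinning, all more negative, 7 with 2 or more stem UMIs and 5 against Cd34 Cd48 progenitors, and from 0 (without SPF pool 2 or 8, each with 380 genes at an unadjusted p under 0.05 by edgeR) to 7 (without CVT pool 6) with pools left out. Against Cd34 Cd48 progenitors the Ccl5 value reversed to -1.01. The G2/M median was 0.57 after thinning. The causes were not tested. Membership by 1 UMI and 49 Ccl5 UMIs in Procr positive cells limit these values.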

Other observations

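At fixed depth, markers of all 3 lineage groups (granulocyte-monocyte, lymphoid, and erythroid or megakaryocyte) were detected in 6.53% ± 1.69 of the cells in CVT and 4.81% ± 1.28 in SPF pools (SD, n = 4 each), and over the 8 pools in 6.09% ± 4.12 of Cd34 Cd48 progenitors, 3.94% ± 3.04 of Procr positive cells, 2.02% ± 1.06 of neutrophil progenitors and 1.52% ± 0.649 of erythroid cells. Cells without any of these markers were 1.74% ± 0.931 in CVT and 3.12% ± 0.686 in SPF pools. These shares were not tested. Of the cells described, 1634 held no Elane UMI at all.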
